A study of Capra hircus with 10 samples.

Results

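The miR-99/100 and miR-125 miRNA were followed in the lactating mammary gland of Alpine goats. The rows were those named miR-99a, miR-99b, miR-100, miR-125a or miR-125b in the tables of counts per mature miRNA, with either arm of the hairpin, which gave 10 rows of 1804. Small RNA libraries had been made from the glands of 10 goats in peak lactation, 48 ± 2 days after kidding, with 1 library per goat. All goats had received a diet of orchard grass hay and concentrate (35:65 forage to concentrate) for 2 weeks. For the last 48 h before slaughter, the 4 Control goats (libraries L01, L04, L06 and L10) were fed this diet ad libitum, and the 6 FD (food deprived) animals, which gave L02, L03, L05, L07, L08 and L09, were deprived of food with free access to water. The goats had been chosen for homogeneous milk yield, lactation number and α-S1-casein genotype, and no transgene is mentioned. The libraries came from whole mammary tissue, so that in these bulk samples fewer cells of a type and less RNA per cell cannot be told apart.

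A miRNA is cut from a hairpin precursor whose 5′ and 3′ arms give the 5p and 3p mature forms, and it recognizes its targets mainly through the seed, bases 2 to 8. The miR-99/100 and miR-125 genes lie beside let-7 genes in conserved clusters that are transcribed as long polycistrons, in the order miR-99 or miR-100, let-7, miR-125. miR-125 is the vertebrate counterpart of lin-4, which with let-7 times development in the worm, and miR-99/100 are known repressors of mTOR and of the IGF1 receptor, which link growth to nutrient supply.

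The mature sequences are shown because they set out which rows share a seed, and hence predicted targets, and which are close enough for reads to be confused. They are those of the deposited tables, written 5′ to 3′ with T for U, and capitals mark the seed.
miR-99a-5p: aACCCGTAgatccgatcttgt
miR-100-5p: aACCCGTAgatccgaacttgt
miR-99b-5p: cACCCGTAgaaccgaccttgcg
miR-125a-5p: tCCCTGAGaccctttaacctgt
miR-125b-5p: tCCCTGAGaccctaacttgt
miR-99a-3p: cAAGCTCGcttctatgggtctgt
miR-99b-3p: cAAGCTCGtgtctgtgggtc
miR-100-3p: cAAGCTTGtgtctataggtat
miR-125a-3p: aCAGGTGAggttcttgggagc
miR-125b-3p: aCAAGTCAggctcttgggacc

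The 5p rows formed 2 seed families. The seed ACCCGTA was held by miR-99a-5p, miR-99b-5p and miR-100-5p, and by no other of the 1804 rows. The seed CCCTGAG was held by miR-125a-5p and miR-125b-5p alone, and 0 predicted miRNA carried either seed. Counted from 1 at the 5′ end, miR-99a-5p and miR-100-5p differed at a single base, T16A, whereas miR-99a-5p and miR-99b-5p differed over their 21 shared positions by A1C, T11A, T16C and T21C. miR-125a-5p and miR-125b-5p shared their first 13 bases. Among the 3p rows, miR-99a-3p and miR-99b-3p had the same seed, while the seeds of miR-125a-3p and miR-125b-3p differed. The mismatches that were allowed in counting are not given in the sources used here, so reads of miR-99a-5p and miR-100-5p with an error at base 16 may have been exchanged.

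Of the 8 genes of these hairpins and of their let-7 mates, 7 were found in the RefSeq gene table of assembly ARS1.2, which is not the build used for the counts and serves here only for neighbours. MIR125B, MIRLET7C and MIR99A followed each other on chromosome 1, within the lncRNA gene LOC102176916. MIR99B and MIRLET7E were adjacent on chromosome 18. MIR100 lay on chromosome 15 within the lncRNA gene LOC108637679, while MIRLET7A was beside MIRLET7B on chromosome 5. MIR125A was the gene not found. The 5p form of miR-125b is made in mammals from a hairpin beside miR-100 as well as from one beside miR-99a. The counts are listed for a single precursor, so that the share of each locus in miR-125b-5p is unknown.

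The libraries held from 4495512 to 7506955 counts for the Control group and from 5674119 to 9842009 for the FD group, with overlapping ranges. The 10 rows together took from 0.398% to 0.517% of the counts in Control libraries and from 0.513% to 0.867% in FD libraries. The lowest share was that of L06, which also had the fewest counts, and the highest that of L08, which had the most. The part of depth in this order was not tested. Epithelial miRNA were abundant in all libraries, with a summed level over 11 rows of the miR-200 family, miR-141, miR-429 and miR-205 of 221821 to 245827 normalized counts in Control and 173950 to 243961 in FD libraries. A normalized count is a raw count over the size factor of its library, as estimated by DESeq2.

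miR-125a-5p was the most abundant member, with a geometric mean of 12037 normalized counts over the 10 libraries, the 44th of all miRNA by mean level. It was followed by miR-125b-5p (8570), miR-99a-5p (6694) and miR-99b-5p (3735). Each of these exceeded the next in 10 of 10 libraries, with an adjusted p of 0.00251 in an exact permutation test over sign changes (unadjusted p = 0.00195, the smallest that this test could give). miR-125b-3p (2236) and miR-100-5p (2155) came next and did not differ beyond their spread, the first being higher in 6 of 10 libraries (exact permutation test, adjusted p = 0.605). The remaining 3p forms were far lower, at 550.3 for miR-99a-3p, 20.4 for miR-125a-3p, 18.9 for miR-99b-3p and 3.32 for miR-100-3p, and those of miR-125a and miR-99b did not differ beyond their spread (adjusted p = 0.547, same exact test). The order is that of reads, and ligation favours some sequences over others.

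The hairpins differed widely in how far the 5p arm prevailed. miR-125b gave 3.14 to 5.12 5p counts for each 3p count, and miR-99a gave 10.3 to 14.7. The ratio was between 141.5 and 266.8 for miR-99b and between 449 and 943 for miR-125a. The 3p form of miR-100 had only 1 to 5 counts in a library against 1179 to 6663 of its 5p form. The 3p form of miR-125b thus came closest to its 5p form in counts. As miR-125b-5p may come from more than 1 locus, its ratio need not be that of a single hairpin.

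**Figure D1:**
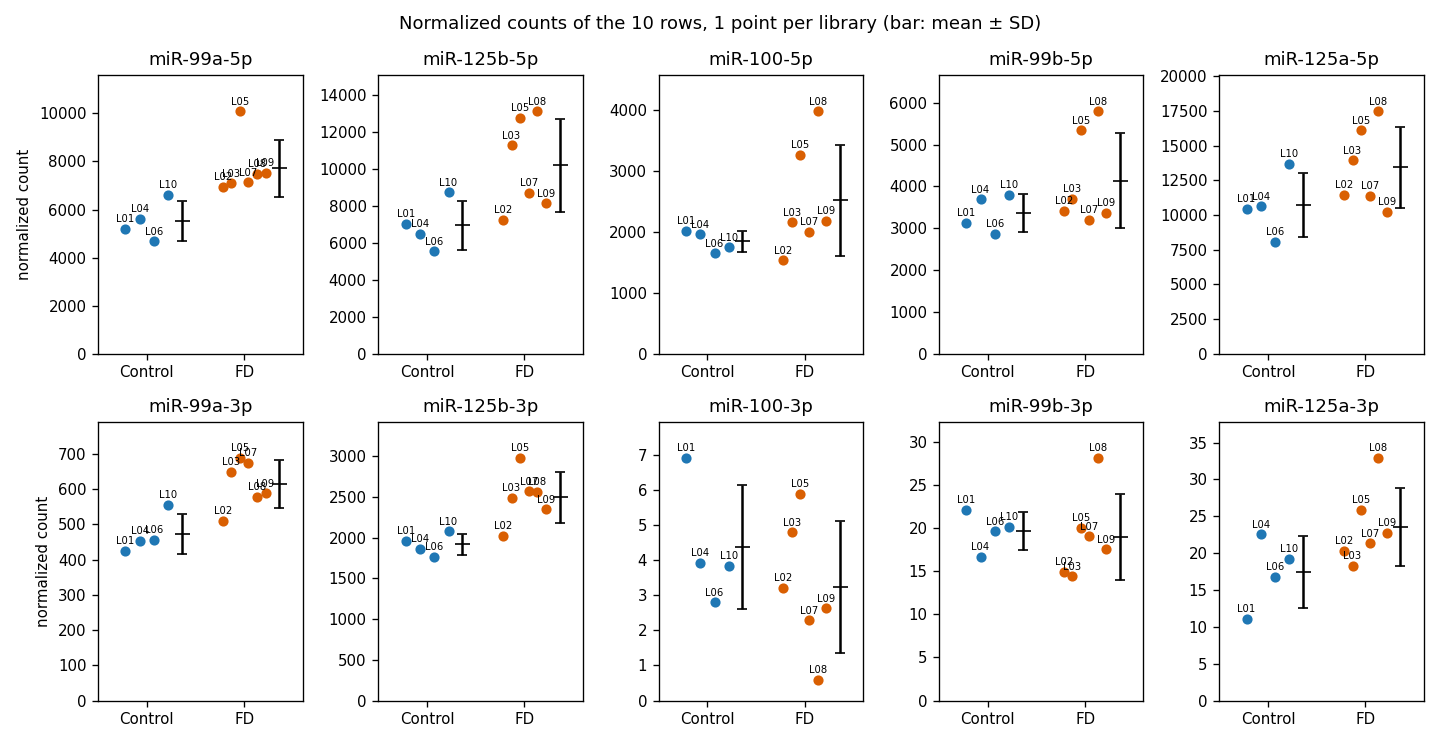
Normalized counts (vertical axes, each starting at 0) of the 10 rows in the 4 Control (blue) and 6 FD libraries (orange), 1 point per library, with the mean ± SD as a black bar. The 6 FD points of miR-99a-5p lie above its 4 Control points, L05 is the highest point of miR-99a-5p, miR-99a-3p and miR-125b-3p, and L08 is the highest of miR-100-5p, miR-99b-5p, miR-125a-5p and miR-125b-5p.

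The effect of food deprivation was examined by comparing the 6 FD with the 4 Control libraries by the quasi-likelihood test of edgeR, run on the raw counts over the 490 miRNA whose highest normalized count exceeded 28. Of the 10 rows, 9 were tested. miR-100-3p, at most at 6.91 normalized counts, was not. miR-99b-3p and miR-125a-3p passed only through FD library L08, with 28.1 and 32.9 normalized counts. At an adjusted p under 0.1, edgeR called 0 of the 9 members and 0 of the 490 miRNA (0.0%), and limma-voom likewise called 0 of the 9 and 0 of the 490, with 4 of the 9 at an unadjusted p under 0.05 against 12.2% of all tested miRNA and 5.31% higher in FD. At an unadjusted p under 0.05, edgeR gave 4 of the 9, all higher in FD libraries, against 15.7% of all tested miRNA in either direction and 7.55% higher in FD. DESeq2 called 2 of the 9, against 4.9% of all tested miRNA and 2.04% called higher in FD. The log2 fold change (FD over Control) was above 0 for 8 of the 9, with a median of 0.36, against 50.0% of all tested miRNA, whose median was -0.00041. The 8 include miR-125a-3p, which passed the filter only through L08. Because the 9 rows hold both arms of single hairpins and mates of shared clusters, they are not independent, and these counts are a description only.

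The 4 members with the smallest p were both forms of miR-99a, from chromosome 1, and both forms of miR-125b, whose 5p form may also come from another locus. miR-99a-5p had 5207, 5627, 4676 and 6622 normalized counts in Control libraries L01, L04, L06 and L10. In the FD group it had 6933 (L02), 7093 (L03), 10093 (L05), 7126 (L07), 7478 (L08) and 7527 (L09), the order kept for the FD values that follow. Every FD library was thus above every Control library, a pattern found in 1.22% of the tested miRNA, and L05 stood above the rest. The log2 fold change was 0.46 (standard error, SE, 0.14, adjusted p = 0.195 in edgeR's test). DESeq2 gave an adjusted p of 0.0887 for a log2 fold change of 0.45, and leaving out single libraries in edgeR gave 0.39 to 0.51.

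miR-99a-3p, cut from the other arm of the same hairpin, had 424.4, 453.3, 455.2 and 556.0 normalized counts in the Control libraries, in the same order. The FD libraries held 510.2, 649.5, 688.4, 674.3, 577.9 and 588.4. The groups overlapped only through Control library L10 and FD library L02. Its log2 fold change was 0.36 (SE 0.15, adjusted p = 0.269).

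miR-125b-3p, listed under a precursor that bears the name of the chromosome 1 gene, had 1959, 1867, 1766 and 2081 normalized counts in the Control libraries. It had 2024, 2488, 2981, 2571, 2562 and 2349 in the FD libraries. Here too the overlap came from L10 and L02 alone, so that 5 of the 6 FD libraries lay above every Control library, which was so for 3.88% of the tested miRNA. Its log2 fold change was 0.36 (SE 0.13, adjusted p = 0.237). DESeq2 gave an adjusted p of 0.0887 for 0.35.

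miR-125b-5p had the largest log2 fold change of the members, 0.54 (SE 0.19, adjusted p = 0.237), and a wider spread. Its Control libraries held 7018, 6495, 5547 and 8729 normalized counts. Its FD libraries held 7235, 11279, 12765, 8711, 13125 and 8134. L03, L05 and L08 were above every Control library, while L02, L07 and L09 lay within the Control range. The let-7 mate of these hairpins, let-7c-5p, had 4934 ± 542 (SD, n = 4) normalized counts in Control against 6427 ± 601 (SD, n = 6) in the FD group, for a log2 fold change of 0.37 (SE 0.11, adjusted p = 0.195 by edgeR and 0.0587 by DESeq2).

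miR-100-5p, which carries the same seed as miR-99a-5p, ranged more widely among FD goats. The Control libraries lay close together at 2021, 1960, 1651 and 1749 normalized counts. The FD libraries held 1535, 2162, 3269, 1999, 3986 and 2184, so that L02 was below every Control library while L05 and L08 were far above. The log2 fold change of 0.44 (SE 0.24, adjusted p = 0.4 in edgeR's test) became 0.19 without L08. miR-100-3p had too few counts to be compared, with 4.37 ± 1.77 (SD, n = 4) normalized counts in Control against 3.23 ± 1.88 (SD, n = 6) in FD libraries.

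The 5p forms of miR-99b and miR-125a were highest in the same FD libraries, L05 and L08. miR-99b-5p had 3129, 3688, 2857 and 3791 normalized counts in the Control libraries. In the FD libraries it had 3422, 3701, 5338, 3204, 5796 and 3362, and only L05 and L08 exceeded the Control range. The resulting log2 fold change was 0.29 (SE 0.20, adjusted p = 0.457) and 0.094 without L08. miR-99b-3p, at 14 to 47 counts before normalization, had a log2 fold change of -0.039 (SE 0.28), a sign that changed with the scaling to library totals (0.0066) and without L01, L02 or L03.

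miR-125a-5p, the most abundant member, had 10432, 10621, 8061 and 13686 normalized counts in the Control libraries. It had 11450, 13943, 16092, 11387, 17474 and 10218 in the FD libraries. The groups overlapped widely, since Control library L10 was above FD libraries L02, L07 and L09. The diet difference was 0.32 on the log2 scale (SE 0.18, adjusted p = 0.421 in edgeR's test) and 0.16 without L08. miR-125a-3p, at 8 to 55 counts before normalization, had a log2 fold change of 0.41 (SE 0.29, adjusted p = 0.457), which was 0.25 without Control library L01. let-7e-5p, the let-7 mate on chromosome 18, had 2172 ± 211 (SD, n = 4) normalized counts in Control against 2416 ± 226 (SD, n = 6) in the FD group, for a log2 fold change of 0.14 (SE 0.12, adjusted p = 0.557 by edgeR).

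**Figure D2:**
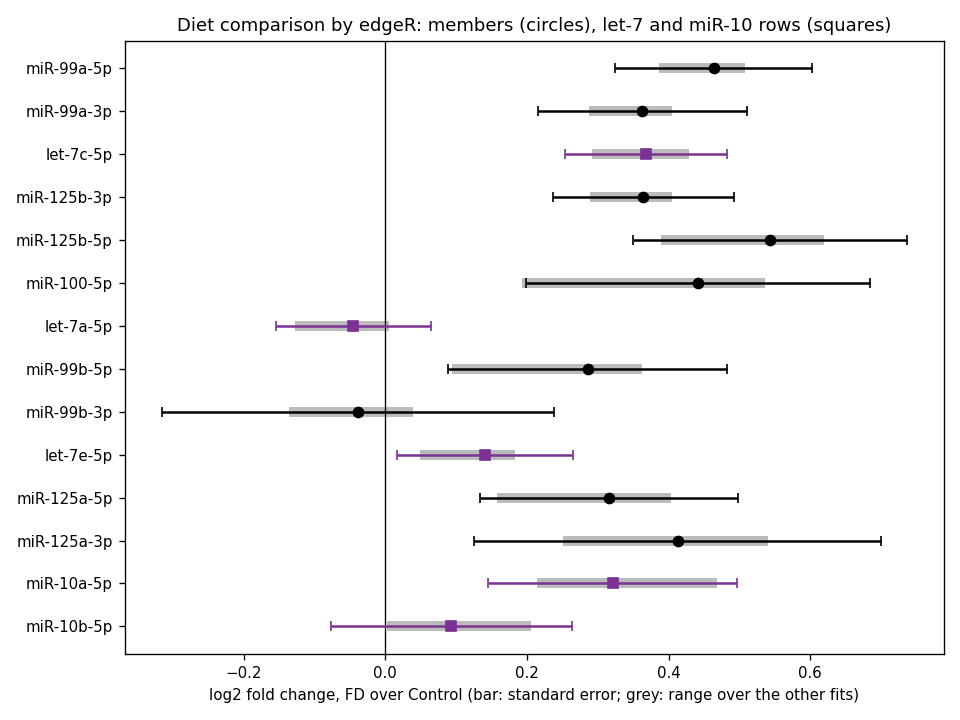
Log2 fold changes (horizontal axis, FD over Control) from edgeR's quasi-likelihood test with standard errors, for the 9 tested members (circles) and for let-7 and miR-10 rows (squares), over a grey bar that spans the fits with other tools, scalings, filters and single libraries left out. The members lie between -0.039 for miR-99b-3p and 0.54 for miR-125b-5p, and the grey bars of miR-100-5p and miR-99b-5p reach down to 0.19 and 0.094.

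The rest of the mir-10 family is related in sequence, miR-10a-5p sharing a run of 11 bases with miR-100-5p, but its seed is shifted (ACCCTGT). Of its 4 rows, 3 were tested and 0 passed an adjusted p of 0.1 in edgeR's test, nor did any have an unadjusted p under 0.05. For miR-10a-5p the log2 fold change was 0.32 (SE 0.18) and for miR-10b-5p, with a mean of 779724 normalized counts in Control libraries, it was 0.093 (SE 0.17). Among the 6 rows of let-7a, let-7c and let-7e, 5 were tested and 0 passed 0.1, and only let-7c-5p had an unadjusted p under 0.05. let-7a-5p had a log2 fold change of -0.045 (SE 0.11).

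The 5p forms that share a seed were also summed, since they share predicted targets. These sums are described without a test. The miR-99/100 total was 10745 ± 1275 (SD, n = 4) normalized counts in Control against 14368 ± 2867 (SD, n = 6) in FD libraries. L05 (18700) and L08 (17261) were the highest, and L02 (11890) was the only FD library within the Control range of 9184 to 12162. The mean difference was 0.40 on the log2 scale, with a spread within diets of 0.24. The miR-125 total was 17647 ± 3623 (SD, n = 4) in Control against 23636 ± 5352 (SD, n = 6) in FD libraries. L03, L05 and L08 were above every Control library, and the mean difference was 0.41 on the log2 scale with a spread within diets of 0.31.

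Within the miR-99/100 total, miR-99a-5p made up 51.4% ± 2.08 (SD, n = 4) in Control against 54.3% ± 5.65 (SD, n = 6) in FD libraries. The widest departure was that of L08, where miR-99a-5p made up 43.3% and miR-100-5p reached 23.1%, against 12.9% to 17.5% of miR-100-5p in the other FD libraries. miR-99b-5p took 31.3% ± 1.04 (SD, n = 4) in Control against 28.5% ± 2.83 (SD, n = 6) in FD libraries. Of the miR-125 total, miR-125b-5p took 37.9% to 40.8% in Control libraries. It took 42.9% to 44.7% in the FD libraries other than L02, where it took 38.7%.

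**Figure D3:**
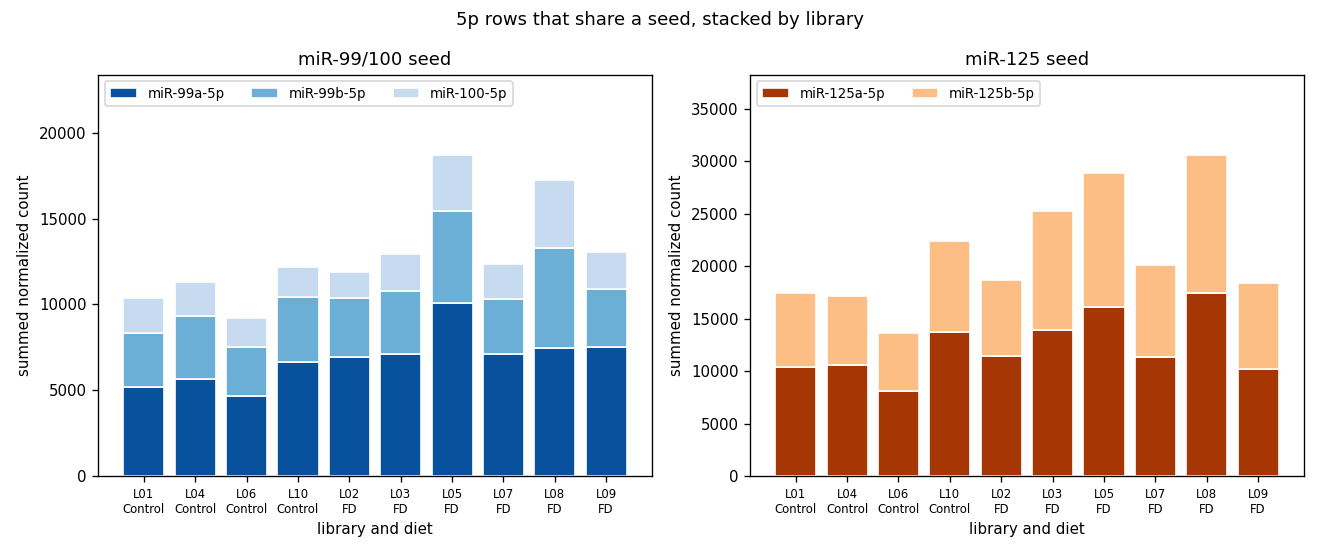
Summed normalized counts (vertical axes, from 0) of the 5p forms that share a seed, in the 4 Control and then the 6 FD libraries, with the colours showing each miRNA. The miR-99/100 total reaches 18700 in L05 and 17261 in L08, and the miR-125 total is lowest in L06 (13608) and highest in L08 (30599).

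Whether members differed from each other in their response was tested on 10 ratios of counts within a library, which need no scaling between libraries. The smallest p of the two-sided exact permutation test with 4 and 6 libraries is 0.00952. A single ratio at that p could not reach an adjusted p under 0.05 over the 10, so the adjusted count cannot decide about any ratio alone. With adjustment over the 10, 0 had an adjusted p under 0.05 in this exact test, and 1 had an unadjusted p under 0.05. That ratio was miR-125b-5p over miR-125a-5p, paralogs with the same seed, which ran from 0.611 to 0.688 in Control and from 0.632 to 0.809 in FD libraries. It was higher by 0.21 on the log2 scale in FD libraries, 5 of the 6 being above every Control library (exact permutation test, p = 0.0381, adjusted p = 0.381). The ratio of miR-99a-5p to miR-99b-5p was also higher by 0.21, from 1.526 to 1.747 in Control and from 1.29 to 2.24 in FD libraries, with 5 of the 6 above every Control library and L08 below (exact permutation test, p = 0.229, adjusted p = 0.698), and the difference was 0.32 without L08. A difference in response between these paralogs was therefore not shown.

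Of the 6 ratios between cluster mates, none passed this threshold, and none had an unadjusted p under 0.05. For miR-99a-5p over let-7c-5p the difference (FD minus Control) was 0.095 on the log2 scale (exact permutation test, adjusted p = 0.698), with 0.919 to 1.35 in Control and 1.09 to 1.37 in FD libraries, and it was 0.00094 without L01 and 0.19 without L10. For miR-99b-5p over miR-125a-5p it was -0.059 (adjusted p = 0.702, same exact test), with 0.277 to 0.354 in Control and 0.265 to 0.332 in FD libraries, and it ran from -0.13 to -0.0072 when single libraries were left out. The largest difference was that of miR-100-5p over let-7a-5p, 0.42 (same exact test, adjusted p = 0.698), which ran from 0.0217 to 0.0241 in Control and from 0.0203 to 0.0544 in FD libraries, with the highest value in L08, and which was 0.25 without L08. The listed genes MIR100 and MIRLET7A lie on different chromosomes, so whether these rows come from a shared cluster is unknown here. The 5p to 3p ratios of the 4 hairpins with both arms tested gave 0 adjusted p-values under 0.05 and 0 unadjusted ones in the exact permutation test. The largest difference was that of miR-99b, 0.34 on the log2 scale (exact permutation test, p = 0.0857, adjusted p = 0.343), which rests on 3p counts of 14 to 47.

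Levels of several cluster mates varied together over the 10 libraries, in part along with the difference between diets. Some paralogs, which were not paired as cluster mates, did so too. miR-125a and miR-99b were paired by the conserved order of the cluster, since MIR125A was not found in the gene table. Pearson's r of log2 normalized counts over the 10 libraries was computed for 6 pairs of cluster mates, and 5 had an adjusted p under 0.05 in a permutation test. After the diet means were subtracted, 2 of the 6 had an adjusted p under 0.05 (exact permutation within diets). Over the 10 libraries r was highest for miR-99b-5p and miR-125a-5p, at 0.904 (permutation p = 8.0e-05, adjusted p = 0.00048), with a Spearman's rho of 0.903 (permutation p = 0.00085, adjusted p = 0.0045). Without L05 and L08, the libraries farthest from the median, r was 0.833, and after the diet means were subtracted it was 0.883 (exact permutation within diets, adjusted p = 0.00174).

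The pairs of miR-99a-5p had r = 0.851 with let-7c-5p (rho 0.879) and r = 0.830 with miR-125b-5p (rho 0.770). Their permutation p-values were 0.00159 and 0.00236 for r and 0.0015 and 0.0126 for rho, with adjusted p = 0.00354 for both r and 0.0045 and 0.0253 for rho. Without L05 and L06 r was 0.640 and 0.661, with exact permutation p-values of 0.0802 and 0.0637, so that these relations rest in part on those libraries. In deviations from the diet means r was 0.578 and 0.666, with adjusted p-values of 0.135 and 0.0553 in the exact permutation test.

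miR-100-5p and miR-125b-5p had r = 0.818 (permutation p = 0.00212, adjusted p = 0.00354) and rho = 0.697 (permutation p = 0.0303, adjusted p = 0.0454). Without L05 and L08 r was 0.520 (exact permutation p = 0.190), and in deviations from the diet means it was 0.774 (exact permutation, adjusted p = 0.0424). For miR-99b-5p and let-7e-5p, r was 0.691 (permutation p = 0.0286, adjusted p = 0.0343), but rho was 0.382 (permutation p = 0.281, adjusted p = 0.337) and r was 0.276 without L05 and L08 (exact permutation p = 0.521). In deviations from the diet means their r was 0.611 (exact permutation within diets, adjusted p = 0.135). The listed genes of miR-100-5p and let-7a-5p lie on different chromosomes, and whether these rows come from a shared cluster is unknown here. They had r = -0.084 (permutation p = 0.813, adjusted p = 0.813) and rho = 0.139 (permutation p = 0.706, adjusted p = 0.706), and r = 0.367 without L05 and L08. Paralogs, not paired as cluster mates, were compared after the data were seen. Their r was 0.939 for miR-125a-5p and miR-125b-5p and 0.883 for miR-99b-5p and miR-100-5p. For miR-99a-5p it was 0.701 with miR-99b-5p and 0.608 with miR-100-5p. High r was thus not particular to cluster mates. Over all pairs of the 490 tested miRNA, the median r was -0.0020 and the upper decile began at 0.552. All these values share the same libraries and size factors.

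**Figure D4:**
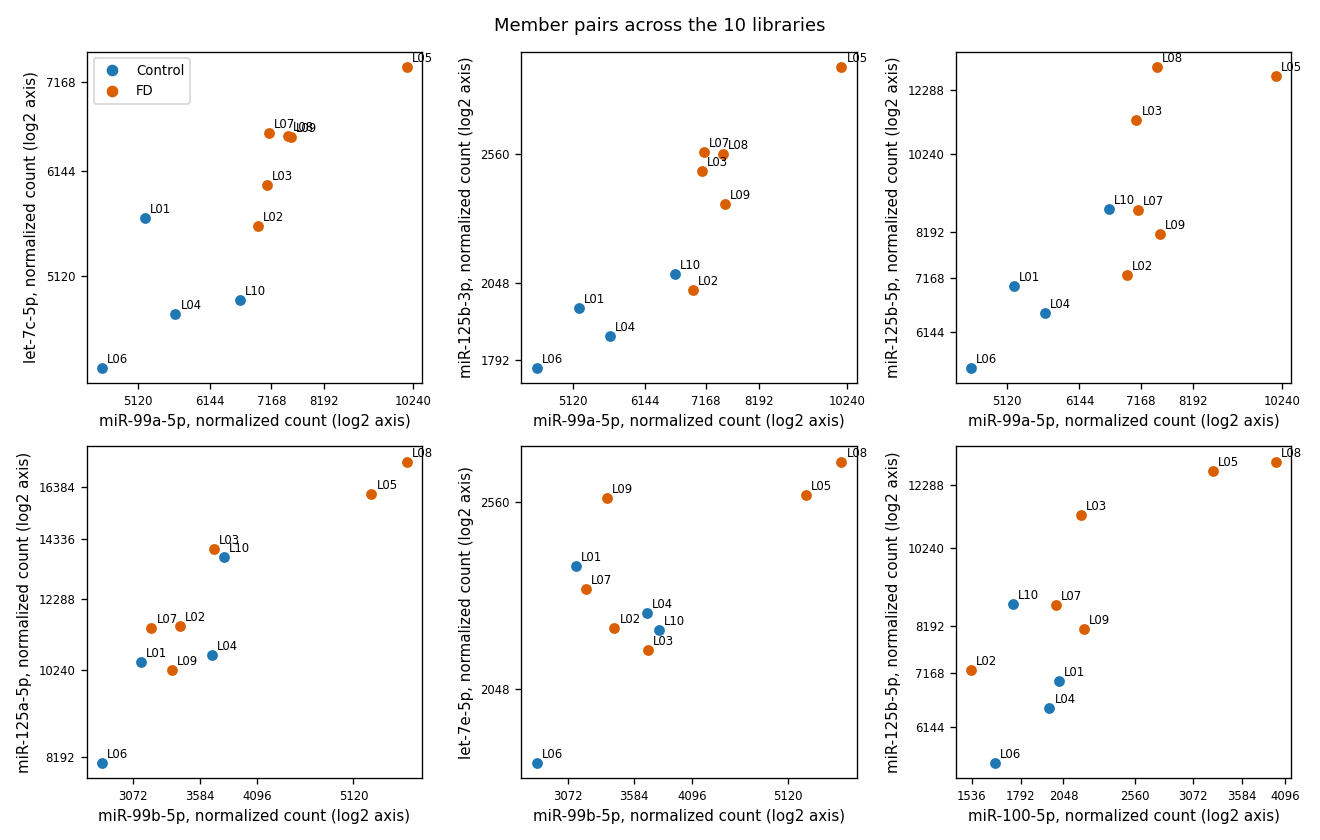
Normalized counts of 6 pairs of rows (both axes log2-scaled, not from 0) in the Control (blue) and FD libraries (orange), with each point labelled by its library. The points of miR-99b-5p and miR-125a-5p run from L06 to L08 (r = 0.904), whereas for miR-99b-5p and let-7e-5p (r = 0.691) L06 lies low, L05 and L08 lie high, and the rest form a cloud between them.

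The library with the highest level differed among the rows, and also between the 5p and 3p forms of miR-125b. miR-100-3p, at 1 to 5 counts before normalization, was highest in Control library L01. L05 was the highest library for miR-99a-5p, miR-99a-3p, let-7c-5p and miR-125b-3p, and L08 was the highest for miR-100-5p, miR-99b-5p, miR-99b-3p, let-7e-5p, miR-125a-5p, miR-125a-3p and miR-125b-5p. L06 was the lowest for 5 of the members, miR-99a-5p, miR-99b-5p, miR-125a-5p, miR-125b-5p and miR-125b-3p. The SD within diets on the log2 scale was 0.21 for miR-99a-5p, 0.17 for miR-99a-3p and 0.16 for miR-125b-3p, against a median of 0.34 over all tested miRNA. It was 0.33 for miR-125b-5p and 0.41 for miR-100-5p, with a median of 0.31 over the tested members. The 5p forms of let-7 had a spread as low, at 0.14 for let-7c-5p and let-7e-5p and 0.15 for let-7a-5p. A low spread was thus not particular to these members.

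Outside the members, the miRNA most like each 5p form over the 10 libraries, by Pearson's r of log2 normalized counts and given as a description, were the following. miR-99a-5p was followed most closely by miR-196a (r = 0.907) and miR-221-5p (r = 0.890), which had log2 fold changes of 0.67 and 0.76. For miR-99b-5p they were miR-342-3p (r = 0.943) and miR-18a-5p (r = 0.907), and for miR-100-5p they were miR-27a-3p (r = 0.919) and miR-455-5p (r = 0.912). miR-125a-5p was followed by miR-16a-3p (r = 0.958) and the predicted chrX_40220_mt (r = 0.915), and miR-125b-5p by miR-195-5p (r = 0.957) and the predicted chrX_39298_mt (r = 0.935). None of these 10 had an adjusted p under 0.1 in edgeR's test, the lowest being 0.195 for miR-196a.

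Markers of other cell types were summed in each library, and the ranges of both diets overlapped for every list. The 2 rows of miR-126, the endothelial marker, summed to 117544 to 144955 normalized counts in Control and 136542 to 197735 in FD libraries. The 2 rows of miR-223, a myeloid marker, summed to 168.0 to 422.9 and 346.0 to 924.9, and the 4 erythroid rows of miR-451 and miR-144 to 3750 to 6061 and 5961 to 8756. The 8 rows of stromal and smooth muscle miRNA (miR-143, miR-145, miR-199 and miR-214) ran from 690407 to 928572 and from 579433 to 1136230. In edgeR's test 0 of the 25 rows of these lists and of the epithelial list that were tested had an adjusted p under 0.1. This was so for 0 of all 490 tested miRNA as well. No row of the lists was at 0 in every library. An unadjusted p under 0.05 was found for 2 of 2 tested myeloid, 1 of 3 erythroid and 2 of 2 endothelial rows. It was found for 2 of 10 epithelial and 0 of 8 stromal and smooth muscle rows, against 15.7% of all tested miRNA. Of these rows, the myeloid, erythroid and endothelial ones were higher in FD libraries and the 2 epithelial ones lower. The median log2 fold change was 1.07 for the myeloid, 0.33 for the erythroid and 0.34 for the endothelial list. It was 0.28 for the stromal and smooth muscle list and -0.20 for the epithelial list. The part of these cells in the levels of the miR-99/100 and miR-125 miRNA was not tested.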

How the data were processed

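The authors removed adapters from the reads with Cutadapt, kept reads of 17–28 nt, aligned these to goat build CHIR_1.0 and counted them per mature miRNA with the quantifier module of miRDeep2. Base calling with CASAVA 1.8.2 is given in the submitters' processing notes. The values used are these deposited counts, which were not normalized. The column of normalized values beside them and the table of predicted precursors were not used.

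The members and the lists were chosen with earlier results of these data known. The miRNA tested were those whose highest count divided by DESeq2's size factor exceeded 28. The effect of diet was tested by the quasi-likelihood method of edgeR (TMM, two-sided, no covariates) over all tested miRNA, at a Benjamini-Hochberg adjusted p of 0.1. The standard error is the log2 fold change divided by the square root of F. Ratios within a library were compared with exact permutation tests over 210 splits and levels of neighbouring members over 1024 sign changes, and correlations with 100000 permutations, each adjusted within its family with a threshold of 0.05. Levels were set on log2(normalized count + 1). A test of the seed family totals was planned but is not given, and the totals are described by their values alone. The miRNA named are the members, the let-7a, let-7c, let-7e, miR-10a and miR-10b rows and the 2 most like each 5p member.

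The alternatives were DESeq2, limma-voom, other scalings and filters, a pseudocount, medians and each library left out in turn. No molecular identifiers are mentioned for these libraries, and PCR copies were therefore counted as reads. Libraries are goats, the unit of replication. No batch is given. The fits and tests were tested on simulated data. Python 3.11.15 (scipy 1.17.1, numpy 2.4.6, matplotlib 3.10.9, pandas 2.3.3) was used for the exact tests and plots, and limma 3.58.1, DESeq2 1.42.0 and edgeR 4.0.16 were run under R 4.3.3. Rows for miR-142 and miR-486, also on the marker lists, were not analysed here.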

Additional observations from a re-analysis of the deposited data

Results flagged for a closer look

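In 60 groups of 4 or 6 values, counting each diet separately for the members, their totals and their ratios, 4 held a library that stood apart from the others by Dixon's criterion, where chance gives about 1 in 20. miR-99a-5p had 10093 normalized counts in FD library L05 and 6933 to 7527 in the other FD libraries. The ratio of miR-100-5p to miR-125b-5p was 0.200 in Control library L10 and 0.288 to 0.302 in the other Control libraries. The ratio of miR-99a-5p to miR-99b-5p was 1.29 in FD library L08 and 1.89 to 2.24 in the other FD libraries. The ratio of miR-125b-5p to miR-125a-5p was 0.632 in FD library L02 and 0.751 to 0.809 in the other FD libraries.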

How the results depend on the processing

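The count of members called at an adjusted p of 0.1 was 0 with edgeR and 2 with DESeq2 (miR-99a-5p and miR-125b-3p), and 0 to 0 when each library was left out in turn. The cause of this difference was not tested. The count of members at an unadjusted p under 0.05 in edgeR, 4 of 9, was 2 of 9 with upper quartile scaling. With single libraries left out it was lowest, at 2, without L06 and without L08, where 7 members were tested. It was highest, at 5, without L02 or L10. The log2 fold change of miR-99b-3p, -0.039, was 0.0066 with library totals and ran from -0.14 to 0.039 when single libraries were left out, with the sign changed without L01 (0.011), L02 (0.0038) and L03 (0.039). The difference in the ratio of miR-99a-5p to miR-125b-5p, -0.06, was 0.0083 with medians and ran from -0.12 to 0.026, being above 0 without L08. That of miR-99a-5p to miR-100-5p ran from -0.0036 (without L02) to 0.25, and that of the 5p to the 3p form of miR-125a from -0.27 to 0.067 (without L01). The r of miR-100-5p and let-7a-5p ran from -0.18 to 0.23, being above 0 without L08. The r of miR-99b-5p and let-7e-5p ran from 0.55 to 0.81 and lost its adjusted p under 0.05 without L02, L05, L06 or L08. The other member fold changes kept their sign. The difference of the miR-99/100 total ran from 0.32 to 0.47 and that of the miR-125 total from 0.30 to 0.54 when single libraries were left out. The number of correlations with an adjusted p under 0.05 ran from 4 to 5. No paired analysis was possible because the labels number the libraries in 1 series, L01 to L10, and tie no Control goat to an FD goat. With 4 and 6 libraries and 8 to 55 counts of the 3p forms of miR-99b and miR-125a, small differences of these forms were not detectable at this depth.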

Other observations

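Beyond the pairs of cluster mates, r was computed after the data were seen for 36 pairs of members and let-7 rows over the 10 libraries. miR-125a-5p and miR-125b-5p had r = 0.939 (permutation p = 9.0e-05, adjusted p = 0.00108) and rho = 0.891 (permutation p = 0.00135, adjusted p = 0.00843), with 0.880 without L06 and L08 and 0.938 in deviations from the diet means (exact permutation within diets, adjusted p = 0.0323). miR-99a-5p and miR-125b-3p, from the 2 ends of the chromosome 1 cluster, had r = 0.911 (permutation p = 6.0e-05, adjusted p = 0.00108) and rho = 0.891 (permutation p = 0.00102, adjusted p = 0.00843), with 0.798 without L05 and L06 and 0.765 in deviations from the diet means (exact permutation within diets, adjusted p = 0.0559). miR-99b-5p and miR-100-5p had r = 0.883 (permutation p = 0.00525, adjusted p = 0.0145), but rho = 0.503 (permutation p = 0.144, adjusted p = 0.178), and r was 0.202 without L05 and L08, so that the relation rests on those libraries. In deviations from the diet means it was 0.857 (exact permutation within diets, adjusted p = 0.0538).

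The ratio of let-7c-5p to let-7e-5p, also taken after the data were seen, ran from 2.14 to 2.39 in Control and from 2.43 to 2.85 in FD libraries, without overlap. It was 1 of 4 ratios added in this way, and the others overlapped between diets. The share of all such ratios without overlap was not computed, so the separation is a description only. The ratio of miR-125b-3p to let-7c-5p ran from 0.3456 to 0.4237 in Control and from 0.3602 to 0.4148 in FD libraries.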
